A study of Caenorhabditis elegans with 9 samples.

Results

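Argonaute proteins bind small RNAs and use them to find complementary transcripts. In Caenorhabditis elegans the family is large. AGO-type members such as ALG-1, ALG-2 and ALG-5 load microRNAs, the Piwi protein PRG-1 loads piRNAs, RDE-1 loads primary short interfering RNAs, and CSR-1 and the worm-specific WAGO proteins load secondary small RNAs made by RNA-dependent RNA polymerases. Many of these proteins stand in germ granules around germline nuclei, whereas HRDE-1 works inside the nucleus. What is described here is the messenger RNA of 10 Argonaute genes, csr-1, prg-1, hrde-1, wago-1, wago-4, ppw-1, rde-1, alg-1, alg-2 and alg-5, chosen by gene name among the 46778 genes of the deposited abundance table and joined by identifier to the deposited counts. All 10 passed the filter on low counts, which kept 10162 genes.

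The series compared RNA of sorted oocyte P-bodies, dissected whole oocytes and whole animal extracts, with 3 libraries each. P-bodies are cytoplasmic granules that gather untranslated messages with factors of RNA decay and repression. Every group came from female worms on day 3 of a strain labelled fog2 with car1:GFP and pgl1:RFP, described with the stage L4 and as arrested in oocytes, so the fog2 mutation and both tags are shared by P-bodies, oocytes and whole animals alike. Hermaphrodites with the fog-2 mutation make no sperm of their own. P-bodies were selected by FAPS, as the labels call the particle sorting, oocytes by dissection, and the whole animals, which hold soma and germline, by neither. Nothing in the labels says that replicates came from separate cultures, so a p-value measures the spread between these samples only, which may be technical.

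Libraries held 27946955 to 78685226 counts, of which 3226465 to 54937023 were from protein-coding genes. Ribosomal RNA made up 91.4% to 91.7% of whole-animal counts, 86.8% to 88.8% of oocyte counts and 29.8% to 38.0% of P-body counts, so that any value scaled by all counts is higher in P-bodies for most genes. TMM factors, the main scaling, centre the comparison on the typical gene. With library totals in their place the log2 fold changes of all genes moved up by a median of 2.51 in P-bodies against oocytes, of 3.19 in P-bodies against whole animals and of 0.68 between oocytes and whole animals. A change below is therefore relative to the typical gene, and the value with library totals stands beside it. The labelled material was checked against marker genes. The 8 oocyte markers took 1.33% to 1.38% of protein-coding counts in oocytes and 1.03% to 1.08% in whole animals, and 1.45% to 1.501% in P-bodies. At an adjusted p under 0.05 in edgeR 0 of these 8 rose or fell in oocytes against whole animals, where 0.709% of all genes rose and 12.5% fell. In P-bodies against oocytes 4 of them rose and 3 fell. Of 6 genes of P-body proteins 2 rose and 1 fell there. Of all genes 26.7% rose and 28.8% fell in that comparison. The 8 intestine markers took 7.60% to 8.87% in whole animals, 0.364% to 1.30% in oocytes and 0.198% to 0.366% in P-bodies. Of 7 sperm markers 6 had no count in any oocyte library.

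All 10 are protein-coding genes of the WBcel235 build, spread over all 6 chromosomes. csr-1 lies on IV at 7957580 to 7962129, hrde-1 on III at 4172337 to 4176159, wago-4 on II at 12919551 to 12923377, alg-2 on II at 873176 to 879001, rde-1 on V at 9987916 to 9991642 and alg-1 on X at 13949114 to 13956261. On chromosome I lie ppw-1 at 4185060 to 4189956, wago-1 at 7235371 to 7238790, prg-1 at 7585324 to 7588367 and alg-5 at 9989802 to 9993975. Merged exons span 2666 bases in prg-1 and up to 6696 in alg-1. The annotation gives 1 transcript each to prg-1, hrde-1, wago-1, wago-4, rde-1 and alg-5, 2 to alg-2, 3 to csr-1, 4 to alg-1 and 9 to ppw-1. The value of csr-1 is uncertain because 438 bases of its exons (11.9%) overlap frpr-10 on the same strand, though frpr-10 itself had 0 counts in all 9 libraries. Exons of prg-1 overlap D2030.12 on the opposite strand by 12 bases and those of alg-5 overlap cfi-1 by 71. These neighbours had at most 75 and 43 counts in a library. Reads may also be split between close relatives, namely alg-1 and alg-2, prg-1 and prg-2, wago-1 and wago-2, and ppw-1 and sago-2, which makes those values uncertain as well.

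Levels scaled by gene length (TPM) spanned a wide range within the family. In oocytes wago-1 and hrde-1, genes of a cytoplasmic and a nuclear silencing Argonaute, stood highest at 131 ± 27.7 and 127 ± 36.0 TPM (mean ± SD, n = 3). Their ranges overlapped, and wago-1 was above hrde-1 in 1 of 3 oocyte libraries. The Piwi gene prg-1 followed at 71.8 ± 18.2 TPM and did not overlap with them. A middle group held csr-1 (31.2 ± 5.75 TPM) and wago-4 (28.9 ± 5.18), whose ranges overlapped although csr-1 was higher in 3 of 3 libraries. Then came alg-5 (17.3 ± 3.62 TPM), alg-2 (13.9 ± 6.63), rde-1 (13.3 ± 4.21) and ppw-1 (10.7 ± 2.41), each overlapping with its neighbour in the order. The microRNA Argonaute gene alg-1 was lowest at 2.88 ± 0.553 TPM, below ppw-1 in every oocyte library.

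Whole animals had nearly that same order of TPM. There hrde-1 stood at 76.3 ± 9.19, wago-1 at 71.7 ± 7.54, prg-1 at 43.2 ± 4.74, csr-1 at 19.1 ± 0.964, wago-4 at 17.8 ± 2.89, alg-5 at 11.5 ± 0.791, rde-1 at 8.03 ± 0.248, alg-2 at 7.18 ± 1.65, ppw-1 at 6.56 ± 0.515 and alg-1 at 1.87 ± 0.204. Neighbours whose ranges overlapped were hrde-1 with wago-1, csr-1 with wago-4, rde-1 with alg-2 and alg-2 with ppw-1.

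In P-bodies the order was different. hrde-1 (794 ± 87.4 TPM) and wago-1 (754 ± 76.7) still led, with overlapping ranges and hrde-1 above in 3 of 3 libraries, and prg-1 followed at 364 ± 35.6. The next place was taken by alg-5 at 219 ± 15.1 TPM, ahead of wago-4 at 159 ± 18.9 and alg-2 at 98.3 ± 8.43, with no overlap between these neighbours. rde-1 (39.1 ± 3.67 TPM), alg-1 (35.8 ± 3.60) and csr-1 (33.4 ± 1.18) overlapped in turn. ppw-1 was last at 10.9 ± 2.03 TPM, below csr-1 in every P-body library. Thus csr-1 had the fourth highest TPM of the 10 genes in oocytes and the ninth in P-bodies, and alg-5 moved from the sixth to the fourth place.

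**Figure D1:**
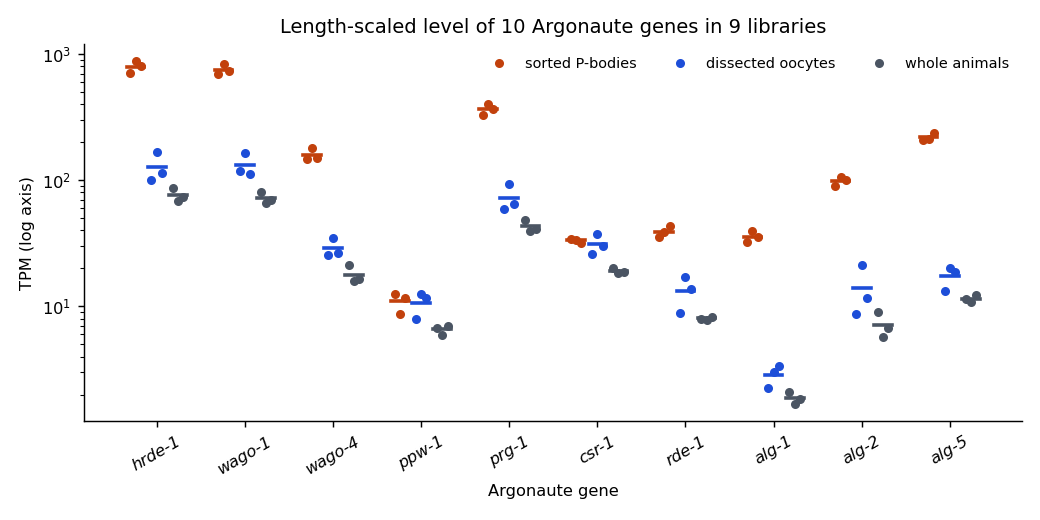
TPM of each of 10 Argonaute genes on a log axis, with 1 point for each of 3 libraries a group and a bar at the group mean. P-body points lie far above the others for most genes, but for csr-1 and ppw-1 they lie among the oocyte points, at group means of 33.4 against 31.2 TPM and 10.9 against 10.7 TPM.

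P-bodies against oocytes showed the family splitting into genes that rose, genes that fell and genes near the typical one. Of the 10 genes 4 rose and 3 fell (edgeR's quasi-likelihood test, Benjamini-Hochberg adjusted p under 0.05 over all genes). Of all 10162 genes tested 26.7% rose and 28.8% fell, 55.5% in all, so a count of 7 called among 10 is not far from that background. The median log2 fold change was 0.17 for the 10 genes and -0.06 for all genes, or 2.68 and 2.44 with library totals. With those totals 9 of the 10 were called higher and none lower, where 79.6% of all genes were higher and 3.35% lower (83.0% in all). The same 7 genes had no overlap between the P-body and oocyte libraries in CPM (counts scaled to a common library size, here with TMM factors), where 32.5% of all genes lay higher and 27.6% lower without overlap.

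The genes of the microRNA Argonautes were the members that rose most, with alg-1 above 88.4% and alg-5 above 88.3% of all genes tested. ALG-1 and ALG-2 are the main microRNA Argonautes of the soma, and ALG-5 is a microRNA Argonaute of the germline. alg-5 had 90.6, 86.0 and 98.1 CPM in P-body libraries 1 to 3 and 33.7, 34.1 and 38.5 CPM in the oocyte libraries. Every P-body library was well above every oocyte library, and alg-5 rose by a log2 value of 1.37 ± 0.10 (SE, adjusted p = 2.25e-07), a 2.58-fold difference, or 3.88 with library totals. The gene alg-1 had 22.3, 25.5 and 23.7 CPM in P-body libraries against 8.86, 8.06 and 10.5 in oocytes. It rose by 1.37 ± 0.13 on the log2 scale (adjusted p = 1.30e-06), or 3.88 with library totals, although its oocyte values rest on no more than 162 to 533 counts per library.

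The relative alg-2 moved less. Its P-body libraries held 39.6, 44.3 and 42.8 CPM and its oocyte libraries 23.7, 37.3 and 25.1 CPM, so that oocyte library 2 came close to the P-bodies. alg-2 rose by a log2 value of 0.56 ± 0.17 (adjusted p = 0.0151), or 3.05 with library totals. The call was lost without oocyte library 3 (0.49, adjusted p = 0.0572), and without oocyte library 2 the value was 0.90. Within each library the ratio of alg-1 to alg-2 in TPM was 0.362, 0.373 and 0.356 in P-bodies. In oocytes it was 0.259, 0.142 and 0.287, and in whole animals 0.232, 0.292 and 0.271. That ratio, which does not depend on the scaling between libraries, was higher in every P-body library than in any other library. The ratio of alg-5 to alg-1 was 6.16 ± 0.673 in P-bodies, close to 5.999 ± 0.547 in oocytes and 6.22 ± 0.636 in whole animals, differences within its spread.

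Markers of somatic tissues went both ways between P-bodies and oocytes, and their part in the values of alg-1 and alg-2 was not tested. Muscle markers took 0.00639% to 0.00808% of protein-coding counts in P-bodies and 0.0305% to 0.0941% in oocytes, and hypodermis markers 0.00151% to 0.00326% and 0.00334% to 0.0359%. Gonadal sheath and spermatheca markers took 0.0644% to 0.0671% in P-bodies and 0.136% to 0.155% in oocytes, with sth-1 at 0 counts in P-bodies. The neuron list went the other way, at 0.0215% to 0.0255% in P-bodies and 0.0125% to 0.0182% in oocytes, where rab-3 was at 0 counts. Of its 7 genes 1 was called higher and none lower, and its part in these results was not tested. The 7 markers of mitotic and early meiotic germline, all of which rose, took 0.464% to 0.471% in P-bodies and 0.216% to 0.238% in oocytes, and their part was likewise not tested.

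Among the genes that fell were csr-1 and ppw-1, by the largest steps in the family. Of all genes tested 10.1% had a lower value than csr-1 and 8.67% than ppw-1. CSR-1 is an essential germline Argonaute with slicer activity that binds small RNAs antisense to expressed germline genes. csr-1 had 15.04, 14.9 and 14.6 CPM in P-body libraries 1 to 3 and 68.3, 63.3 and 63.7 CPM in the oocyte libraries. These groups are far apart and each is tight, and the fall was 2.13 ± 0.09 on the log2 scale (adjusted p = 6.44e-09), a 4.38-fold difference. With library totals csr-1 was slightly higher in P-bodies at 0.38 ± 0.12 (adjusted p = 0.00993), against 2.44 for the median gene. PPW-1 is needed for efficient RNA interference in the germline. ppw-1 had 4.61, 3.18 and 4.36 CPM in P-bodies and 18.9, 19.7 and 22.3 CPM in oocytes. It fell by 2.33 ± 0.15 (adjusted p = 7.04e-08), and with library totals its value was 0.18 ± 0.18 and did not pass (adjusted p = 0.374).

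The third gene that fell was rde-1, whose protein starts RNA interference triggered by foreign double-stranded RNA. It had 16.1, 16.2 and 18.7 CPM in P-bodies and 23.6, 30.5 and 29.7 CPM in oocytes, without overlap. The fall of 0.72 ± 0.12 (adjusted p = 0.000187) was smaller than those of csr-1 and ppw-1, and with library totals rde-1 lay at 1.78, again below the median gene.

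The genes of the WAGO and Piwi branches that stood highest in TPM stayed near the typical gene. HRDE-1 carries silencing across generations in germline nuclei. hrde-1 had 347, 402 and 379 CPM in P-bodies and 302, 325 and 271 CPM in oocytes, close but not overlapping. It rose by 0.33 ± 0.12 (adjusted p = 0.0292), or 2.84 with library totals. That call was lost without oocyte library 3 (0.28, adjusted p = 0.0648), without P-body library 2 (0.28, 0.0987) or 3 (0.33, 0.0757), with the stricter filter (0.19, adjusted p = 0.179) and with only the compared groups in the fit (0.33, adjusted p = 0.0769). Without oocyte library 2 its value was 0.50, and with no filter 0.55. Every member lay higher with no filter and lower with the stricter filter than in the main fit, so these changes are not particular to hrde-1.

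WAGO-1, a cytoplasmic Argonaute of germ granules, silences transposons and other targets with secondary small RNAs. wago-1 had 294, 333 and 301 CPM in P-bodies and 305, 272 and 232 CPM in oocytes, and the groups overlapped. Its value of 0.20 ± 0.12 did not pass (adjusted p = 0.182), but leaving out oocyte library 2 made it pass (0.31, adjusted p = 0.0434). Fitting with no filter, which moved every member up, also made it pass (0.42, adjusted p = 0.000778). Without oocyte library 1 it was 0.32 (adjusted p = 0.0588), and with library totals 2.72. WAGO-4 acts in the inheritance of RNA interference. wago-4 had 67.6 to 78.9 CPM in P-bodies and 59.9 to 72.4 CPM in oocytes, with a value of 0.13 ± 0.12 (adjusted p = 0.351), or 2.65 with library totals. It passed with no filter (0.36, adjusted p = 0.00954).

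PRG-1 is the worm Piwi protein, whose piRNAs scan germline transcripts for foreign sequence. prg-1 had 122, 138 and 132 CPM in P-bodies and 133, 136 and 117 CPM in oocytes, and the groups overlapped. Its value of 0.03 ± 0.10 did not pass (adjusted p = 0.843), and over the 9 fits that left out 1 library it ran from -0.02 to 0.18. With library totals it was 2.54, near the 2.44 of the median gene.

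**Figure D2:**
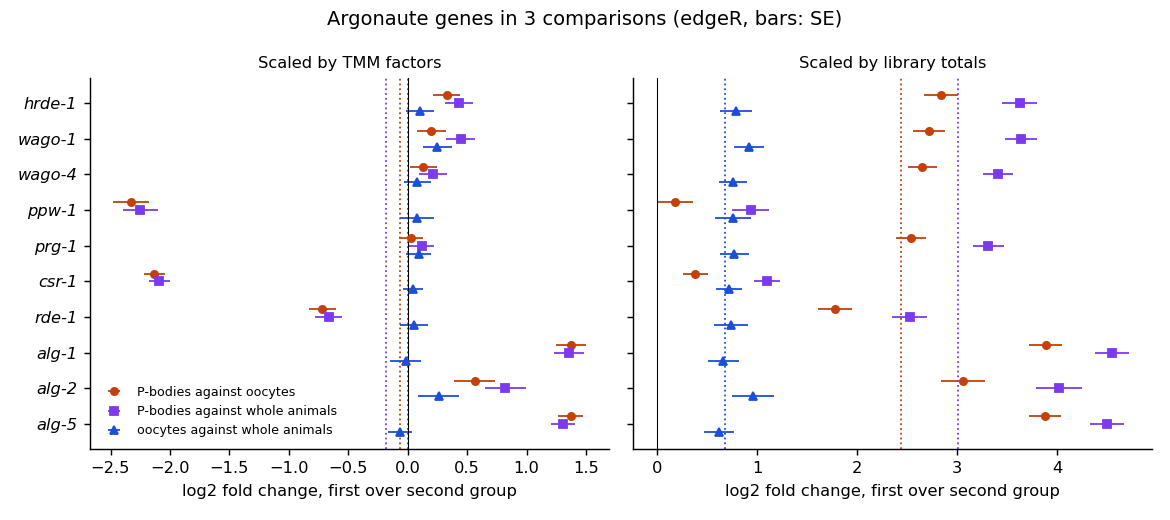
Log2 fold change with SE of each Argonaute gene in 3 comparisons, with TMM factors on the left and library totals on the right, and a dotted line in each colour at the median of all genes tested. On the left csr-1 and ppw-1 stand apart from the other members, below -2, in both comparisons with P-bodies, and alg-1 and alg-5 stand above 1.3. On the right all values are above 0, with csr-1 and ppw-1 farthest below the dotted medians in the comparisons with P-bodies.

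P-bodies against whole animals share their P-body libraries with the comparison above, so the values are given side by side and not as a repeat. Of the 10 genes 5 rose and 3 fell, where 27.9% of all genes rose and 38.9% fell, 66.8% in all (edgeR's quasi-likelihood test, adjusted p under 0.05). The same 8 had no overlap in CPM, where 33.8% of all genes lay higher and 42.8% lower without overlap. The genes that rose were alg-1 by 1.35 ± 0.13 (adjusted p = 1.22e-06), alg-5 by 1.31 ± 0.10 (2.71e-07), alg-2 by 0.82 ± 0.17 (0.00116), wago-1 by 0.45 ± 0.12 (0.00556) and hrde-1 by 0.43 ± 0.12 (0.00541). Those that fell were ppw-1 by 2.25 ± 0.15 (adjusted p = 6.77e-08), csr-1 by 2.09 ± 0.09 (3.71e-09) and rde-1 by 0.67 ± 0.12 (0.000260). Steps of this size were common, as 21.6% of all genes tested had a lower value than ppw-1, 22.4% than csr-1 and 38.8% than rde-1.

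The values of wago-4 (0.21 ± 0.12, adjusted p = 0.119) and prg-1 (0.12 ± 0.10, adjusted p = 0.329) did not pass. With library totals all 10 were higher in P-bodies, from 0.93 for ppw-1 and 1.10 for csr-1 to 4.54 for alg-1, around a median gene at 3.00, and all were called, where 76.6% of all genes were higher and 9.73% lower (86.3% in all). The calls of hrde-1 and wago-1 were lost with the stricter filter, at 0.24 (adjusted p = 0.0908) and 0.26 (adjusted p = 0.0863), and with no filter they were 0.68 and 0.70. Without oocyte library 2, which enters this fit through the shared spread and scaling, prg-1 passed at 0.24 (adjusted p = 0.0313) and wago-4 at 0.34 (0.0138). Without whole-animal library 1 wago-4 passed at 0.33 (adjusted p = 0.0333). Both genes also passed with only the compared groups in the fit, prg-1 at 0.36 and wago-4 at 0.46, and with no filter, at 0.37 and 0.47. Those 2 settings moved every member up, and the stricter filter moved every member down. With only the compared groups csr-1 went from -2.09 to -1.85 and alg-1 from 1.35 to 1.60. Such passes and losses thus go with a shift common to the members and are not particular to a gene. wago-4 passed with protein-coding totals at 0.26 (adjusted p = 0.0258).

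The comparison of oocytes with whole animals set the dissected germ cells beside the worm with all its tissues. None of the 10 genes was called by edgeR, where 0.709% of all genes rose and 12.5% fell (13.2% in all). DESeq2 also called 0 of the 10, where 2.35% of the 12318 genes tested were called higher and 16.4% in either direction. At an unadjusted p under 0.05 in edgeR the count was 0 as well. No share of all genes is given at that limit, so this last count has no background. The CPM of all 10 overlapped between the groups, where 7.83% of all genes lay higher and 21.4% lower without overlap. csr-1 had 68.3, 63.3 and 63.7 CPM in oocytes and 62.0, 64.05 and 63.6 CPM in whole animals, with a log2 value of 0.04 ± 0.09 (adjusted p = 0.817). alg-1 had 8.86, 8.06 and 10.5 CPM against 10.1, 8.62 and 9.26, with a value of -0.02 ± 0.13 (adjusted p = 0.956). These libraries overlapped for both genes.

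The largest values among the 10 were 0.26 ± 0.18 for alg-2 (adjusted p = 0.402) and 0.25 ± 0.12 for wago-1 (adjusted p = 0.225), and the lowest was -0.06 ± 0.10 for alg-5 (adjusted p = 0.756). wago-1 passed with protein-coding totals as library size (0.36, adjusted p = 0.0143). With library totals all 10 were called higher in oocytes, at 0.62 to 0.96, where the median gene lay at 0.68 and 51.9% of all genes were called higher and 11.8% lower (63.8% in all). In bulk extracts fewer cells of a type and less RNA per cell cannot be told apart. All 8 intestine markers were called lower in oocytes than in whole animals.

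The make-up of the family within a library is free of the scaling between libraries. The summed level of the family is not free of it. In P-bodies against oocytes the median log2 value of the 10 genes was 0.17 with TMM factors but 2.68 with library totals. The median of all genes was -0.06 and 2.44. The 10 genes summed to 2507 ± 229 TPM in P-bodies, compared with 449 ± 107 TPM in oocytes and 263 ± 27.6 TPM in whole animals. Of that sum csr-1 took 1.503%, 1.24% and 1.28% in P-body libraries 1 to 3, 7.05%, 6.55% and 7.40% in the oocyte libraries and 6.86%, 7.62% and 7.33% in whole animals. P-body shares were thus all below the others. ppw-1 took 0.444% ± 0.117 in P-bodies, far less than the 2.41% ± 0.406 in oocytes and 2.502% ± 0.200 in whole animals, and rde-1 took 1.57% ± 0.152, 2.94% ± 0.5005 and 3.07% ± 0.314 in that order.

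In the other direction alg-5 took 9.10%, 7.79% and 9.41% of the sum in P-bodies, 3.57%, 3.52% and 4.58% in oocytes and 3.91%, 4.49% and 4.83% in whole animals. alg-1 took 1.43% ± 0.0164 in P-bodies against 0.656% ± 0.150 in oocytes, and alg-2 took 3.92% ± 0.0497 against 2.997% ± 0.702. hrde-1 took 31.6% ± 0.640 against 28.2% ± 1.17. prg-1, near the typical gene by its CPM, took 14.5% ± 0.150 in P-bodies, compared with 15.98% ± 0.218 in oocytes and 16.4% ± 0.267 in whole animals. A share falls when others rise, so it states unequal change within the family only.

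Between P-bodies and oocytes the shares of alg-1, alg-2, alg-5 and hrde-1 were higher and those of csr-1, ppw-1, rde-1 and prg-1 lower without overlap, and those of wago-1 and wago-4 overlapped. Each of these 8 differences had p = 0.1 in a two-sided exact permutation test of 3 against 3 libraries, which is the smallest that this design allows, and 0.167 after adjustment over 30 tests, so none passed. Lack of overlap was common between these groups in CPM, where 32.5% of all genes lay higher and 27.6% lower without overlap. CPM of single genes is another measure, and shares depend on each other, so these percentages are no direct background for the 8. Between oocytes and whole animals only wago-1 had shares without overlap, at 29.4% ± 2.22 against 27.2% ± 0.101 (exact permutation p = 0.1). In CPM 7.83% of all genes lay higher and 21.4% lower without overlap there.

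**Figure D3:**
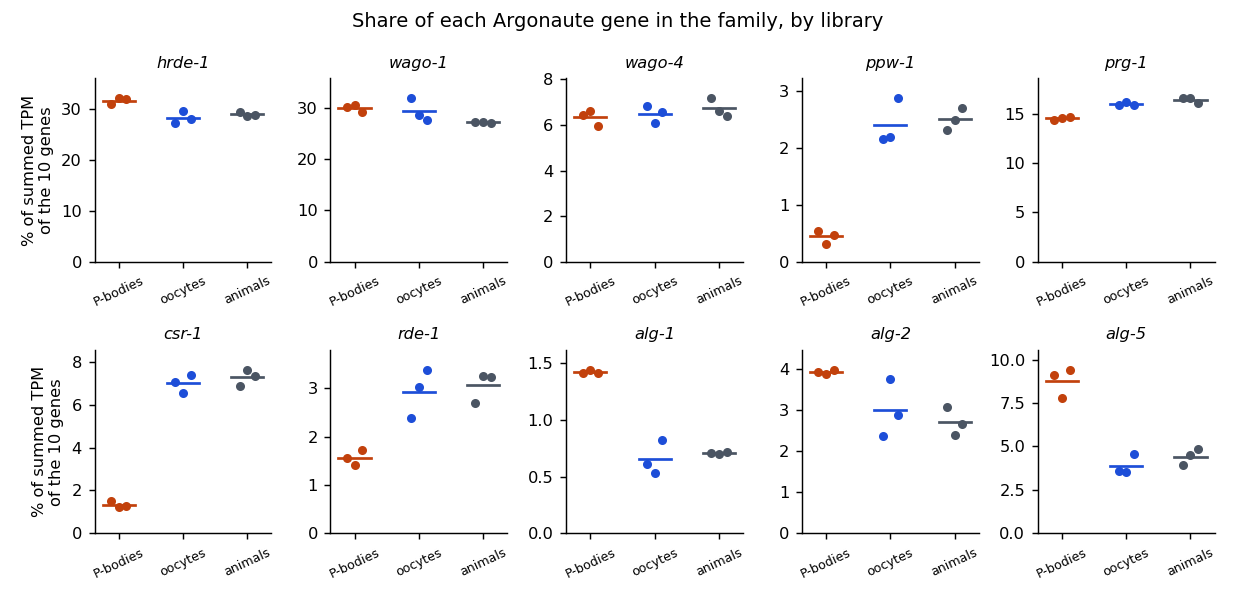
Share of each Argonaute gene in the summed TPM of the 10 genes, in percent from 0, with 1 point per library and a bar at the mean of the 3 libraries of a group. The P-body points of csr-1 (mean 1.34%) and ppw-1 (0.444%) lie far below those of oocytes (7.001% and 2.41%), and those of alg-5 (8.77% against 3.89%) and alg-1 (1.43% against 0.656%) lie above.

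Ratios between germline branches show the size of that shift. In TPM hrde-1 stood at 20.5, 25.9 and 24.9 times csr-1 in P-bodies, at 3.86, 4.50 and 3.78 times in oocytes and at 4.29, 3.74 and 3.94 times in whole animals. The ratio of prg-1 to csr-1 was 10.9 ± 1.20 in P-bodies, above 2.29 ± 0.171 in oocytes and 2.26 ± 0.132 in whole animals. In contrast hrde-1 and wago-1 had a ratio of 1.05 ± 0.0328 in P-bodies, beside 0.964 ± 0.0974 in oocytes and 1.06 ± 0.0169 in whole animals. The ratio of wago-4 to wago-1 was 0.211 ± 0.00658, 0.222 ± 0.0127 and 0.247 ± 0.0143 in that order.

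The 13 other Argonaute genes, listed with earlier results of these data known, also held genes on both sides. Of these 9 passed the filter, and in P-bodies against oocytes 5 rose, 3 fell and wago-11 was not called (-0.72 ± 0.74, adjusted p = 0.427), where 26.7% of all genes rose and 28.8% fell (55.5% in all). Their median was 0.41 beside -0.06 for all genes. NRDE-3 carries small RNAs into somatic nuclei, and nrde-3 rose by 1.20 ± 0.10 from 15.4 ± 0.533 to 35.4 ± 2.19 CPM (adjusted p = 8.11e-07). sago-1, a secondary Argonaute gene, rose by 1.10 ± 0.16 (adjusted p = 7.17e-05). ERGO-1 loads endogenous primary small RNAs, and ergo-1 rose by 0.60 ± 0.11 from 111 ± 7.71 to 169 ± 19.9 CPM (adjusted p = 0.000524). ppw-2, also known as wago-3, rose by 0.44 ± 0.13 and vsra-1 by 0.41 ± 0.11. With library totals these genes lay at 2.92 to 3.71.

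The genes of this list that fell were prg-2, wago-2 and sago-2. prg-2, close kin of prg-1, fell by 1.93 ± 0.12 (adjusted p = 6.62e-08), its CPM being 22.9 ± 2.99 in oocytes but 6.01 ± 0.291 in P-bodies. wago-2, kin of wago-1, fell by 2.06 ± 0.20 (adjusted p = 2.03e-06), with 9.24 ± 2.43 and 2.23 ± 0.257 CPM. The annotation calls both pseudogenes, as it does wago-11. With library totals they lay at 0.57 and 0.44. Both are uncertain because reads can be shared with their relatives. sago-2 was called lower (adjusted p = 0.00228) on few reads, with 5, 0 and 1 counts in P-bodies and 7, 2 and 10 in oocytes. Genes of Argonautes active in sperm formation had few reads, alg-3 with at most 2 counts and alg-4 with at most 7 in a library. In oocytes against whole animals nrde-3 alone of the 9 was called, higher by 0.37 ± 0.11 (adjusted p = 0.0368).

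Other genes of the small RNA pathways gave mixed counts in P-bodies against oocytes, to be read beside the 26.7% of all genes that rose and the 28.8% that fell. Among 7 RNA-dependent RNA polymerases and their partners 3 rose and 2 fell (median 0.26). The polymerase genes rrf-1 and ego-1 rose by 1.46 ± 0.10 and 0.71 ± 0.10 and the phosphatase gene pir-1 by 1.57 ± 0.15, and drh-3, a helicase gene, fell by 0.97 ± 0.12 (1.53 with library totals). Of 10 genes of mutator foci, where secondary small RNAs are amplified, 8 rose and 1 fell (median 0.72). The nucleotidyltransferase gene mut-2 rose by 1.16 ± 0.13, smut-1 by 1.10 ± 0.15, nyn-2 by 1.02 ± 0.13 and mut-15 by 0.82 ± 0.11.

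Of 13 genes for Dicer and the entry of double-stranded RNA 4 rose and 5 fell (median -0.10), with rises of 1.55 ± 0.16 for rde-11 and 1.46 ± 0.15 for the transporter gene sid-1. Calls of drh-2 and sid-2 in this list rest on means under 1 CPM. Of 8 genes listed under microRNA processing and effect 3 rose and 2 fell (median -0.07), a count that includes the chromatin gene hmg-4. Here ain-1, a GW182-type partner of microRNA Argonautes, rose by 1.27 ± 0.12 and the co-factor gene nhl-2 by 1.15 ± 0.10, hmg-4 rose by 1.32 ± 0.13, and the exonuclease gene xrn-2 fell by 1.33 ± 0.16 (1.18 with library totals).

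Of 12 genes of nuclear RNA interference and inheritance 4 rose and 6 fell (median -0.35), among them nrde-2, whose protein acts with nuclear Argonautes, with a fall of 1.67 ± 0.12, morc-1 with a fall of 1.48 ± 0.10, the histone methyltransferase gene met-2 with a fall of 1.18 ± 0.10 and hrde-2 with a rise of 1.49 ± 0.12. With library totals nrde-2, morc-1 and met-2 lay at 0.83, 1.04 and 1.33. Of 13 genes of piRNA biogenesis and small RNA modification 4 rose and 7 fell (median -0.32). Examples are pid-1 with a rise of 1.15 ± 0.24, tofu-5 with a rise of 0.94 ± 0.10, the trimming enzyme gene parn-1 with a fall of 0.94 ± 0.23 and tofu-2 with a fall of 0.80 ± 0.16 (1.55 and 1.70 with library totals).

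Of 13 germ granule partners matched to an identifier none rose and 7 fell (median -0.39), such as lotr-1 by 0.97 ± 0.10 and pgl-3 by 0.72 ± 0.14 (1.54 and 1.79 with library totals). The entry wago-3 of this list matched no identifier and is not among the 13. That name belongs to ppw-2, which rose and is counted with the other Argonaute genes. Among the genes named in these lists with a log2 value the largest adjusted p was 0.00383, of parn-1 (edgeR's quasi-likelihood test). The medians stand beside -0.06 for all genes. With library totals the medians of these 7 lists were 2.12 to 3.23.

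**Figure D4:**
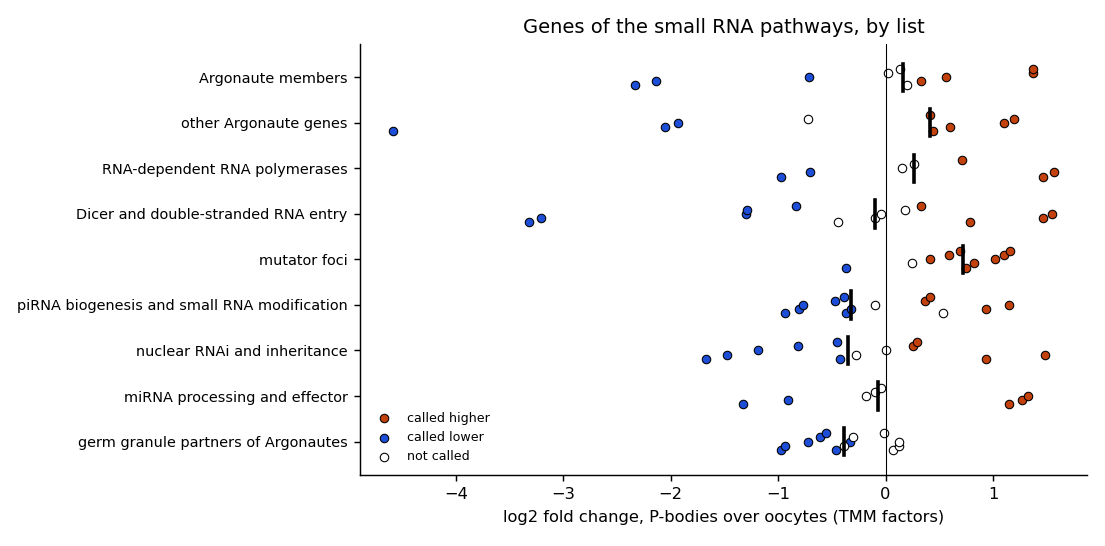
Log2 fold change in P-bodies over oocytes (TMM factors) of the tested genes of 9 lists, with filled points for called genes and a bar at each list's median. The Argonaute genes and their relatives fall into a group above 0 and a group near or below -2, with rde-1 and wago-11 at -0.72 between, and the leftmost point, sago-2, rests on few counts.

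Genes with patterns most like those of members over the 9 libraries were found as the smallest root mean square difference in centred log2 CPM among 3646 other genes of at least 10 CPM. For csr-1 they were nap-1, a nucleosome assembly protein gene (0.09), and rars-1, of an arginyl-tRNA synthetase (0.10). For prg-1 they were nkb-1, of a sodium pump subunit (0.03), and Y92H12BL.1 (0.04). For rde-1 they were ekl-1, a small RNA pathway gene (0.05), and the phosphatase subunit gene ppfr-1 (0.07), and for alg-1 rgs-7 (0.08) and tag-307 (0.08). The member most like csr-1 was ppw-1 at 0.19, only at rank 46 of the 3646 genes, and the member most like alg-1 was alg-5 at 0.12, at rank 19. For rde-1 the nearest member was prg-1 at 0.39, at rank 1283. These are descriptions over 9 libraries that share their groups.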

How the data were processed

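RNA was measured by paired-end sequencing in 9 libraries, 3 per group, made from total RNA with a stranded kit for small inputs, after reversal of crosslinks, per the labels' protocols. Reads were aligned with HISAT2 2.1.0 to WBcel235, per the submitters' processing notes. The authors deposited raw counts per gene, named for HTSeq. The strand setting and the treatment of reads with several matches are not given in the sources used here. TPM, FPKM and coverage (signal) stand in the authors' deposited StringTie table, per the file headers, and FPKM and coverage entered no result. Gene models came from the Ensembl annotation of WBcel235.

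Samples were grouped by their titles. Raw counts entered a quasi-likelihood fit in edgeR 4.0.16 (R 4.3.3), scaled by TMM and fitted robustly over the 9 libraries together, with group as the sole term and 6 residual degrees of freedom, after edgeR's filter by group (minimum count 10, minimum total 15). Adjusted p-values are Benjamini-Hochberg values over all 10162 genes, called under 0.05. Shares within the family were tested by exact permutation (scipy 1.17.1). The procedure was run on simulated counts in which few genes changed, equally up and down, a setting that does not test the scaling between these groups. Alternatives were DESeq2 1.42.0, limma 3.58.1 on log2(TPM + 1) and log2(TPM + 0.1), other scalings and filters, thinning of counts and leaving out each library. Replicate numbers were not taken to pair samples. No 2 libraries of a group held identical counts. The members, the gene lists and the rule for named genes (all 10 members, and up to 4 called genes of a list with the largest change) were chosen with earlier results of these data known. Symbols of 4 list entries that matched no identifier were left out. The lowest count of a member in a library was 155, of alg-1. Sequences of the genes are not printed here.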

Additional observations from a re-analysis of the deposited data

How the results depend on the processing

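Of the log2 values of the 10 genes under 22 alternatives in each comparison, 175 for P-bodies against oocytes kept their direction and their side of the threshold, 184 for P-bodies against whole animals and 161 for oocytes against whole animals. Of the 45, 36 and 59 others, 6, 5 and 10 came with library totals, 24, 20 and 37 in the 4 limma fits on TPM, which change the measure, the test and the scaling together, and 15, 11 and 12 with the other scalings and filters, fewer groups or libraries, or thinned counts. In P-bodies against oocytes the count of genes called higher was 4, and it was 9 with library totals and 8 in each of the 4 limma fits on TPM, where 69.7% of all genes were called higher on log2(TPM + 1). The count called lower was 3, and 0 in those same fits, where 3.35% of all genes were called lower with library totals and 2.62% on log2(TPM + 1). Leaving out 1 library gave 2 to 5 higher and 3 lower. The count of 2 came without oocyte library 3. The fit with no filter gave 6 higher, and the stricter filter and the fit of only the compared groups gave 3 each. For the fits with other filters, fewer groups or libraries, and the other limma fits, the share of all genes called was not computed. Their counts, here and in the other comparisons, therefore have no background and are not results about the members. In P-bodies against whole animals the 5 called higher became 10 with library totals and in the 4 limma fits, 3 with the stricter filter, 7 with no filter, 7 with only the compared groups, 6 with protein-coding totals and 5 to 7 without 1 library, and the 3 called lower became 0 with library totals and in the limma fits. Of all genes 76.6% were called higher there with library totals, 67.9% on log2(TPM + 1) and 31.8% with protein-coding totals. Called lower were 9.73%, 12.9% and 40.5% in that order. In oocytes against whole animals the 0 called higher became 10 with library totals, 1 with protein-coding totals, 9 on log2(TPM + 1), also with a mean TPM of at least 1, 10 on log2(TPM + 0.1) and 5 on log2(TPM + 1) without a filter. The edgeR fit with no filter called 0 there. Of all genes 51.9% were called higher in oocytes with library totals, 7.84% with protein-coding totals and 34.3% on log2(TPM + 1).

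Signs turned with library totals and in the limma fits. In P-bodies against oocytes csr-1 was 0.38 with library totals and 0.11 in the 4 limma fits, ppw-1 0.18 with library totals, 0.0368 on log2(TPM + 1) with any filter and 0.0407 on log2(TPM + 0.1), and rde-1 1.78 with library totals, 1.53 on log2(TPM + 1) with any filter and 1.60 on log2(TPM + 0.1). In P-bodies against whole animals csr-1 was 1.10, 0.78 and 0.81 in that order, ppw-1 0.93, 0.65 and 0.71, and rde-1 2.52, 2.15 and 2.27. In oocytes against whole animals alg-1 was 0.66 with library totals and 0.59 on log2(TPM + 0.1), and alg-5 0.62, with 0.52 on log2(TPM + 1) and 0.56 on log2(TPM + 0.1). Genes with values near 0 also turned, passing in neither fit. In P-bodies against oocytes prg-1 was -0.0433 with protein-coding totals, -0.113 with the stricter filter, -0.0264 with thinned counts and -0.0242 to 0.18 without 1 library, and wago-4 was -0.00697 with the stricter filter. In P-bodies against whole animals prg-1 was -0.0711 with the stricter filter. In oocytes against whole animals csr-1 was -0.00703 with the stricter filter and alg-5 0.0564 with protein-coding totals. There alg-1 was 0.0406 with DESeq2 size factors, 0.112 with protein-coding totals, 0.0487 in DESeq2, 0.0154 with no filter, 0.428 on log2(TPM + 1) with any filter, 0.0105 with only the compared groups, 0.00377 with thinned counts and -0.136 to 0.0821 without 1 library. Library totals keep the ribosomal RNA in the total. Shares of the family without overlap between oocytes and whole animals were 0 lower with all libraries and 0 to 3 lower without 1 library, the highest without oocyte library 3.

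With the replicate number as a block the counts stayed at 4 higher and 3 lower, at 0 and at 5 and 3, and csr-1 in P-bodies against oocytes was -2.13, with no call of a member changed. Same-numbered libraries of P-bodies and oocytes had correlated deviations of 0.138, 0.107 and 0.0845, each the highest for its number, a hint from the data and not the design, and in the other pairs of groups 1 or more was below 0. Depth limits alg-1 most, with 155 to 533 counts in a library outside P-bodies.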

Other observations

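Among the 10 Argonaute genes the log2 value for P-bodies over oocytes went down with the largest number of exons in any annotated transcript of the gene (Spearman's rho = -0.82 across 10 genes). That number ran from 7 exons in hrde-1, alg-1 and alg-2 to 13 in csr-1. Across all 9622 protein-coding genes tested rho was -0.02. With merged exon length rho was 0.32 across the 10 genes and -0.04 across all. These are correlations across genes of the same libraries, and genes are not independent replicates.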
